A study of Homo sapiens with 24 samples.

Results

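The 31 genes described here make, move and export cholesterol or control those steps. They were listed by name and ordered along the pathway, and each was found among the 28907 gene symbols of the deposited table. Of the 31, 7 belong to the mevalonate pathway, 11 to the committed sterol steps from squalene onward, 5 to the control of the SREBP transcription factors, 3 to sterol movement inside the cell, and 5 to sterol export and the LXR receptors. RNA was measured in 24 libraries of the human ovarian cancer cell lines ES2 and A2780, with 3 libraries in each of 8 groups. In each line the groups were an siRNA against VRK1 (siVRK1), a control siRNA (siCtrl), luteolin, a plant flavone, and its solvent DMSO. VRK1 encodes a nuclear protein kinase. The labels call every sample wild type and name no other allele. Part of the samples titled siVRK1 carry the treatment names siVRK2 or siVRK3, as described below, and no further agent is named. The sources used here give neither the number and sequence of the siRNAs nor the luteolin dose or the times of harvest. Each is 1 established cell line, and nothing in the labels says that the 3 libraries of a group were grown apart, so the p-values measure the spread between these samples alone, which may be technical.

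Cells build cholesterol from acetyl-CoA through mevalonate, farnesyl diphosphate, squalene and lanosterol. When membrane sterol is low, SCAP carries SREBP2, the product of SREBF2, from the endoplasmic reticulum to the Golgi, where proteases release the part that switches on nearly every enzyme gene of the pathway. When sterol is plentiful, INSIG1 and INSIG2 hold SCAP back, and oxysterols activate the LXR receptors encoded by NR1H2 and NR1H3, which raise exporters such as ABCA1 and ABCG1. INSIG1 is itself an SREBP2 target, so its transcript is widely read as a gauge of SREBP activity.

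Values are TPM, the share of each transcript in its library per its length, summed per gene, and TPM carries no record of depth, so the depth is unknown and no counting interval can be given. A change is the log2 difference of TPM + 1, followed by ± its standard error. The added 1 TPM shrinks the changes of scarce genes. A gene was called when its adjusted p was under 0.05. VRK1 itself was at 2.92 to 4.20 TPM in ES2 siVRK1 libraries, against 62.2 to 66.2 TPM in ES2 siCtrl libraries, and at 7.98 to 11.3 TPM in A2780 siVRK1 libraries, against 53.6 to 55.2 TPM in A2780 siCtrl libraries. The keratin KRT7 was at 323 to 501 TPM in ES2 and at most 0.0313 TPM in A2780, while the ovarian markers PAX8, WT1 and MUC16 stayed at or below 4.12 TPM in ES2 and 0.121 TPM in A2780. KRT18 and KRT8 were at 197 to 540.5 and 46.7 to 91.9 TPM in ES2, and at most 9.35 and 1.425 TPM in A2780. KRT19 reached at most 0.257 TPM in ES2 and 0.457 TPM in A2780. EPCAM was higher in A2780, at 0.682 to 2.01 TPM, against at most 0.293 TPM in ES2. Of 5 leukocyte markers CD3E was at 0 and PTPRC at most at 0.569 TPM in all 24 libraries, and LYZ and CD14 reached 1.87 and 1.92 TPM. Of 3 endothelial markers VWF stayed at or below 0.0129 TPM, while CDH5 ranged over 8.52 to 39.3 TPM in ES2. Of 4 fibroblast markers LUM reached 1.23 TPM at most, while COL1A1 ranged over 11.2 to 128 TPM in ES2 and 1.68 to 5.502 TPM in A2780. PDGFRA ran the other way, at 2.64 to 4.94 TPM in ES2 and 8.11 to 15.04 TPM in A2780. DCN reached at most 1.97 TPM in ES2 and ranged over 1.56 to 4.19 TPM in A2780. In both lines the cell line label counts upward from sample to sample, and part of the siVRK1 samples of both lines carry the treatment names siVRK2 or siVRK3. Titles were followed instead, and in both lines VRK1 was low in each library titled siVRK1. A pair of ES2 siVRK1 columns share a name, so those libraries are called a and b, beside library 3.

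Of the 31 members, 27 had a promoter in the RefSeq table of GRCh38.p14. In the 250 bases before the start, CCAAT on either strand, the NF-Y motif that often accompanies sterol regulatory elements, was held by 17 of the 27 and by 33.0% of all 27305 promoters. GGGCGG, the Sp1 motif, was held by 25 of the 27 and by 42.3% of all. The core of the sterol regulatory element, CACNCCAC on either strand, was held by 3 of the 27 (INSIG1, SREBF2 and ABCA1) and by 4.72% of all. An exact copy of the LXR element, AGGTCA repeated after 4 free bases, was held by 0 of the 27 and by 0.0146% of all. So strict a pattern is nearly absent everywhere, and looser forms of the element were not searched. The 0 thus cannot show whether the LXR targets hold such an element. These matches describe letters in a window and are not binding sites. The promoters of HMGCS1, HSD17B7, INSIG1 and SREBF2 are shown because these 4 genes were called lower in all 4 comparisons of siVRK1 or luteolin below. Capitals mark both motifs, CCAAT and the CACNCCAC core, on either strand. Each line runs from 250 bases before the start to the base before it, in the direction of the gene, as RefSeq gives it.

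HMGCS1, minus strand, chr5:43313413-43313662: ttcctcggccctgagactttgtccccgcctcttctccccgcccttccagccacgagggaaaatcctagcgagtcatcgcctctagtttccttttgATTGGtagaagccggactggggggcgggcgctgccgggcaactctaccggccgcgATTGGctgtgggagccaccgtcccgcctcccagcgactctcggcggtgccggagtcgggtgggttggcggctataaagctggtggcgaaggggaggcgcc

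HSD17B7, plus strand, chr1:162790452-162790701: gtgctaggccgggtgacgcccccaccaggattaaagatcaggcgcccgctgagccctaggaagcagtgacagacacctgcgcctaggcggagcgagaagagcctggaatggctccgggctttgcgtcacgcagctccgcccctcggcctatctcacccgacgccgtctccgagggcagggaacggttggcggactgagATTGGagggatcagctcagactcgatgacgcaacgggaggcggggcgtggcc

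INSIG1, plus strand, chr7:155297628-155297877: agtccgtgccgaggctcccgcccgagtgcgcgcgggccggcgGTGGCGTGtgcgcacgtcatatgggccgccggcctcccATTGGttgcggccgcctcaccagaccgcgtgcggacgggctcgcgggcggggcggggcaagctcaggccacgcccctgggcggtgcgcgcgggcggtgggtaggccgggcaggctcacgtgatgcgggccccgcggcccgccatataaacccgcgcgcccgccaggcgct

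SREBF2, plus strand, chr22:41832855-41833104: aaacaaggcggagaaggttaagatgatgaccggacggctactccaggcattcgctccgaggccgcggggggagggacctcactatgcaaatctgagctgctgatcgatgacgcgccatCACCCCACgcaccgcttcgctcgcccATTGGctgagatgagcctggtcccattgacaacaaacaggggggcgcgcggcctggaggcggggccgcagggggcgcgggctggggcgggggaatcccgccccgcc

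HMGCS1 held a pair of CCAAT matches, beginning 155 and 100 bases before the start. HSD17B7 held 1, at 52 bases, and neither of these 2 promoters held the CACNCCAC core. INSIG1 held the core at 208 bases and CCAAT at 170, and SREBF2 held them at 132 and 106.

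The lines differed in most of these genes in their control libraries, as they did in most genes tested. No library was untreated. Over the 6 control libraries of each line (3 siCtrl and 3 DMSO), 5 of the 31 members were higher and 23 lower in ES2 than in A2780. Over all 14328 genes tested 34.3% were higher and 49.4% lower. The share called was 90.3% of the members and 83.7% of all genes. Rescaling the libraries moved the median difference of all genes, which was −0.17 as deposited and −0.04 with median-of-ratios scaling, so member differences between the lines are given relative to that median, with the p of the deposited scale. With that scaling 6 members were higher and 23 lower, against 5726 higher and 6250 lower of all 14328 genes. The largest contrast lay within the committed sterol steps. TM7SF2, a sterol reductase acting after lanosterol demethylation, was at 1.53 to 2.14 TPM in control ES2 libraries and 32.9 to 43.9 TPM in control A2780 libraries, a difference of −3.67 ± 0.10 (adjusted p = 3.29e-19). DHCR7, the reductase of the last step, ran the other way, at 270.1 to 378 TPM in control ES2 and 43.7 to 67.3 TPM in control A2780 libraries (2.58, adjusted p = 2.96e-20). Neither gene overlapped between the lines, which was a condition of giving full values here and below.

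HMGCS1, the synthase that feeds the mevalonate pathway, ranged over 18.9 to 42.8 TPM in control ES2 and 78.9 to 103 TPM in control A2780 libraries (−1.42). FDPS, which makes farnesyl diphosphate, ranged over 191 to 205 and 291 to 435 TPM in ES2 and A2780 controls (−0.68). CYP51A1, the lanosterol demethylase, ranged over 15.9 to 27.2 and 43.3 to 55.3 TPM (−1.05). All 3 were lower in ES2, as was EBP, a sterol isomerase (61.2 to 72.9 TPM in ES2 and 97.03 to 143 TPM in A2780 controls, −0.67). NSDHL, a dehydrogenase that helps strip methyl groups from sterols, was higher in ES2, at 31.8 to 36.9 TPM in ES2 and 25.6 to 28.1 TPM in A2780 controls (0.52). Among the control genes, SREBF1 (19.8 to 24.3 TPM in ES2 and 48.5 to 67.2 TPM in A2780 controls, −1.16) and SREBF2 (24.5 to 31.96 and 60.4 to 66.7 TPM, −0.97) were lower in ES2. INSIG2 ranged over 9.59 to 16.4 TPM in ES2 and 18.3 to 44.6 TPM in A2780 controls (−1.03), and within A2780 its siCtrl libraries (43.4 to 44.6 TPM) stood above its DMSO libraries (18.3 to 27.7 TPM). Of the carriers, STARD4, a sterol transfer protein of the cytosol, was at 2.63 to 8.58 TPM in ES2 and 15.99 to 30.9 TPM in A2780 controls (−1.56). NPC2, the soluble sterol carrier of the lysosome, was at 54.8 to 70.2 TPM in ES2 and 138 to 175 TPM in A2780 controls (−1.10). The exporters were low in both lines: ABCA1 reached at most 1.69 TPM and ABCG1 at most 0.543 TPM in any control library.

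**Figure D1:**
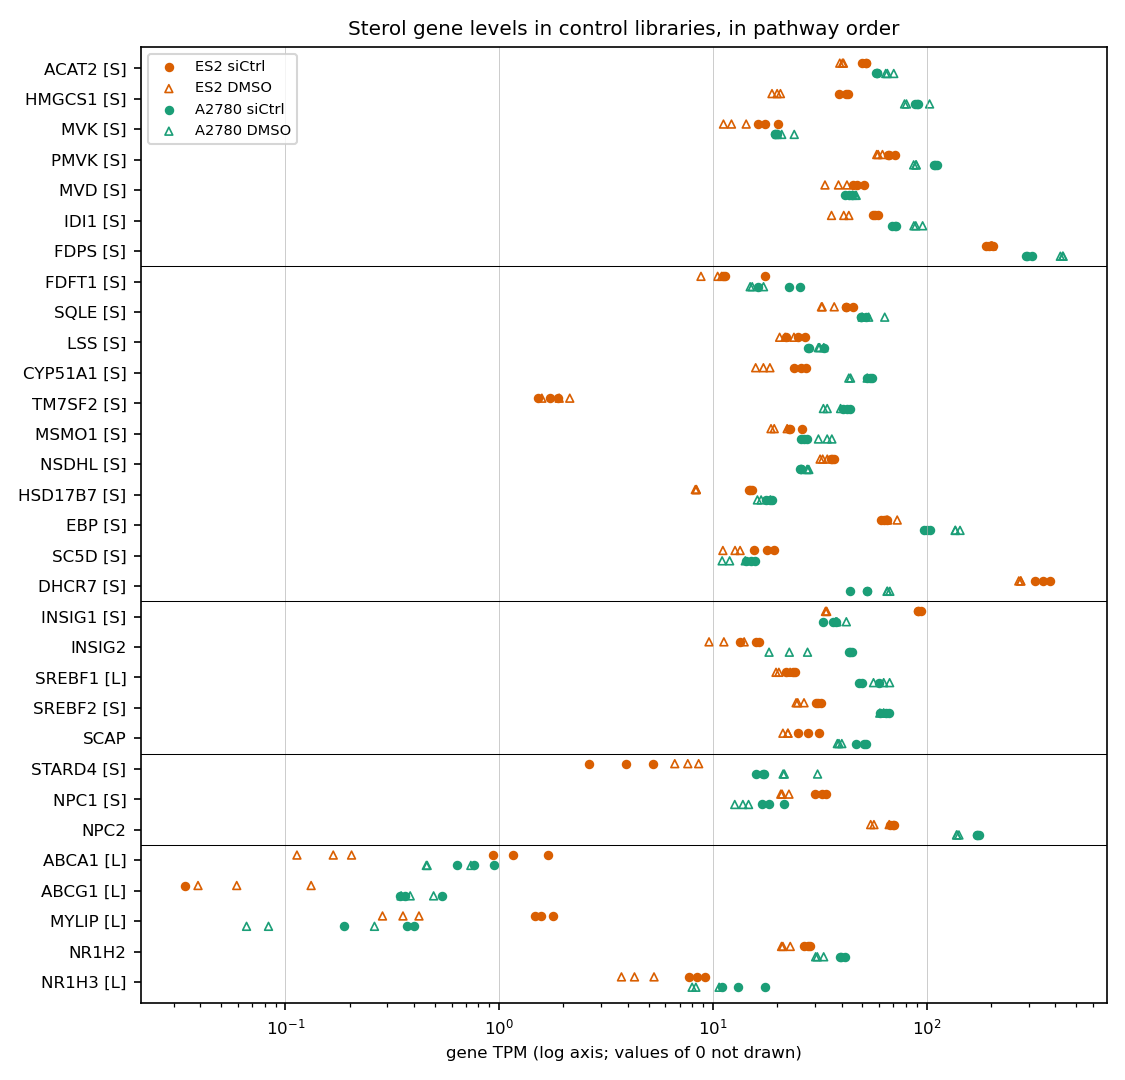
Gene TPM on a log axis for the 31 genes in pathway order, with each control library as a point (filled circles siCtrl, open triangles DMSO; ES2 drawn above A2780; [S] SREBP2 target group, [L] LXR target group). TM7SF2 and DHCR7 stand furthest apart between the lines, and ABCA1, ABCG1 and MYLIP lie at or below 1.79 TPM in every control library.

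With siVRK1 in ES2, 11 of the 30 members tested were lower and 5 higher, against 28.0% lower and 26.8% higher over all 12507 genes (54.8% called), so the 53.3% of members called was close to the share over all genes. Of the 22 SREBP2 targets, 9 were lower and 4 higher, with a median change of −0.04. ABCG1 did not reach 1 TPM in 3 ES2 libraries and was not tested there. The 4 largest falls among the members were in SC5D, INSIG1, HSD17B7 and HMGCS1. SC5D, the sterol desaturase that precedes DHCR7, was at 4.54, 4.33 and 4.29 TPM in ES2 siVRK1 libraries, against 19.4, 17.99 and 15.6 TPM in ES2 siCtrl libraries, a change of −1.79 ± 0.10 (adjusted p = 1.29e-08). INSIG1 was at 44.5, 41.5 and 40.5 TPM with siVRK1, against 91.5, 90.9 and 94.3 TPM with siCtrl (−1.11 ± 0.06, adjusted p = 1.55e-08). Both genes were far below every control siRNA library. HSD17B7, a ketosteroid reductase of sterol demethylation, was at 7.61, 5.38 and 7.01 TPM with siVRK1, against 14.7, 15.2 and 14.9 TPM with siCtrl (−1.07 ± 0.11, adjusted p = 3.05e-06). HMGCS1 was at 23.1, 21.7 and 22.9 TPM with siVRK1, against 39.1, 42.05 and 42.8 TPM with siCtrl (−0.84 ± 0.09, adjusted p = 4.35e-06). None of these groups overlapped. The summed level of 8 ovarian and Mullerian epithelial markers was 636 to 675 TPM in ES2 siVRK1 libraries, against 962 to 987 TPM in ES2 siCtrl libraries, and that of the 4 fibroblast markers 51.9 to 64.3 TPM, against 81.7 to 97.9 TPM. In A2780 the epithelial sum was 6.58 to 8.37 TPM with siVRK1, against 10.3 to 12.1 TPM with siCtrl. The part of these values in the changes was not tested. In ES2 the epithelial sum was mostly KRT7 and KRT18 and the fibroblast sum mostly COL1A1. All samples of a line are of 1 cell line, so these sums are no count of cell kinds. In such bulk samples, fewer cells holding a transcript and less of it per cell cannot be told apart.

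The other enzymes of ES2 did not move one way. MSMO1, the methylsterol oxidase, rose, with 35.6, 35.5 and 33.9 TPM in ES2 siVRK1 libraries, against 22.6, 22.9 and 26.1 TPM in ES2 siCtrl libraries (0.54 ± 0.08, adjusted p = 9.49e-05). PMVK, the phosphomevalonate kinase, SQLE, the squalene epoxidase, LSS, the lanosterol synthase, and NPC2 also rose, by 0.32, 0.21, 0.36 and 0.42. The SQLE call was lost without ES2 siCtrl library 1 (adjusted p = 0.0509) or library 2 (0.0515), and the LSS call without ES2 siCtrl library 1 (0.063) or ES2 siVRK1 library b (0.0571). Without ES2 siCtrl library 1 the 5 higher calls became 3. ACAT2, the thiolase at the head of the pathway, fell by 0.30, MVD, the mevalonate diphosphate decarboxylase, by 0.38, DHCR7 by 0.23, SREBF2 by 0.47 and the LXR gene NR1H2 by 0.34. The DHCR7 call was lost with quantile normalization (−0.12, adjusted p = 0.0629). MVK, the mevalonate kinase, was called lower (−0.32, adjusted p = 0.0411), but not without siVRK1 library 3 (adjusted p = 0.18), siCtrl library 2 (0.0688) or siCtrl library 3 (0.156), with the replicate block (0.0566), with the groups compared alone (0.0524), with no filter (0.0852) or with coding transcripts alone (0.101). FDPS, IDI1, CYP51A1, NSDHL and EBP were not called, with changes between −0.05 and 0.10.

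With siVRK1 in A2780, 15 of the 31 members were lower and 4 higher, against 27.0% lower and 13.8% higher over all 13012 genes (40.9% called, and 61.3% of the members). Of the 22 SREBP2 targets, 14 were lower and 1, MSMO1, was higher, with a median change of −0.32, where the median of all genes was −0.08. With median-of-ratios scaling 14 members were lower and 5 higher, of which 13 and 2 were SREBP2 targets. Over all genes 2642 were lower and 2712 higher with that scaling. SC5D was at 6.79, 5.91 and 5.78 TPM in A2780 siVRK1 libraries, against 15.7, 14.3 and 15.1 TPM in A2780 siCtrl libraries (−1.17 ± 0.11, adjusted p = 5.01e-06). HSD17B7 was at 9.44, 6.63 and 7.34 TPM with siVRK1, against 17.7, 18.8 and 18.5 TPM with siCtrl (−1.15 ± 0.13, adjusted p = 2.04e-05). The same pair of sterol enzymes thus had the largest falls among the members in A2780, and SC5D had the largest in ES2. HMGCS1 was at 52.8, 51.1 and 46.8 TPM with siVRK1, against 88.2, 90.02 and 91.1 TPM with siCtrl (−0.83 ± 0.09, adjusted p = 2.17e-05). INSIG1 was at 20.8, 21.4 and 20.2 TPM with siVRK1, against 37.7, 32.8 and 36.4 TPM with siCtrl (−0.75 ± 0.08, adjusted p = 2.07e-05). SREBF2, which encodes SREBP2, was at 45.04, 44.7 and 41.6 TPM with siVRK1, against 64.6, 60.9 and 66.7 TPM with siCtrl (−0.54 ± 0.05, adjusted p = 7.62e-06). Each of these siVRK1 libraries lay below each siCtrl library of the line.

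The fall in A2780 also took in mid-pathway enzymes. MVK was at 12.7, 12.7 and 11.9 TPM in A2780 siVRK1 libraries, against 20.01, 19.5 and 19.6 TPM in A2780 siCtrl libraries (−0.63 ± 0.12, adjusted p = 0.000987). CYP51A1 was at 37.8, 36.03 and 37.1 TPM with siVRK1, against 54.2, 52.4 and 55.3 TPM with siCtrl (−0.53 ± 0.07, adjusted p = 6.79e-05). FDPS fell by 0.47, NSDHL by 0.46, EBP by 0.38, PMVK by 0.35, the isopentenyl diphosphate isomerase IDI1 by 0.28, SQLE by 0.27 and MVD by 0.25. The MVD call was lost with median-of-ratios scaling (−0.15, adjusted p = 0.0651) and both MVD (0.0728) and SQLE (0.0545) lost it with quantile normalization. MSMO1 rose by 0.29 and NPC2 by 0.22. NR1H3, the LXR alpha gene, was at 7.71, 8.97 and 8.57 TPM with siVRK1, against 11, 17.6 and 13.1 TPM with siCtrl (−0.64 ± 0.18, adjusted p = 0.014), and the call was lost without siCtrl library 2 (−0.47, adjusted p = 0.0654), which held the highest value. DHCR7, LSS, TM7SF2, INSIG2, SREBF1, SCAP, STARD4 and NPC1 were not called, with changes between −0.08 and 0.18.

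**Figure D2:**
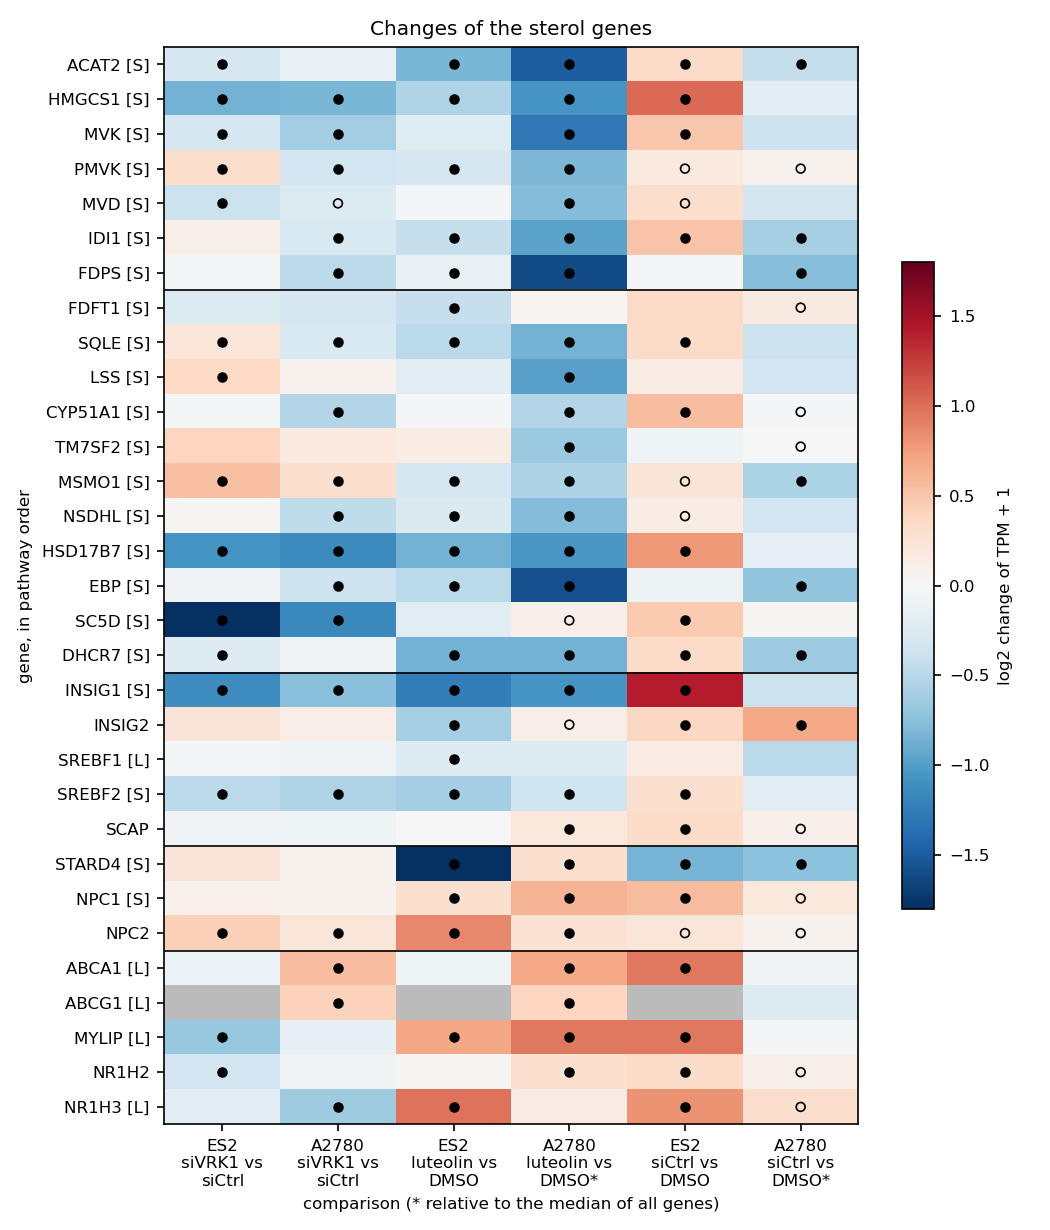
Log2 changes of TPM + 1 for the 31 genes (rows, in pathway order, [S] SREBP2 target group, [L] LXR target group) in 6 comparisons (columns), with blue for lower and red for higher in the group named first; columns with an asterisk are relative to the median of all genes and grey marks a gene not tested. Filled dots are calls that median-of-ratios scaling kept in the same direction and open dots are calls that it did not keep; HMGCS1, HSD17B7 and INSIG1 are blue with filled dots in all 4 columns of siVRK1 and luteolin.

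Between the lines, the change with siVRK1 differed (ES2 minus A2780) for 10 of the 31 members, 7 above 0 and 3 below, against 20.7% above and 13.2% below over 14328 genes (33.9% called). With median-of-ratios scaling the counts were 6 above and 6 below, against 2225 above and 2786 below of all 14328 genes. PMVK differed most, by 0.67 ± 0.08 (adjusted p = 3.77e-06): it was at 81.7, 86.3 and 87.2 TPM in ES2 siVRK1 and 71.5, 66.02 and 66.8 TPM in ES2 siCtrl libraries, and at 84.5, 88.7 and 84.5 TPM in A2780 siVRK1 and 109, 108 and 112 TPM in A2780 siCtrl libraries. CYP51A1 differed by 0.51 ± 0.10 (adjusted p = 0.000471) and had 26.3, 24.9 and 24.7 TPM in ES2 siVRK1 and 23.9, 25.96 and 27.2 TPM in ES2 siCtrl libraries, whose ranges overlap. PMVK thus rose in ES2 and fell in A2780. IDI1, FDPS, SQLE, NSDHL and EBP also differed upward, by 0.32 to 0.49, and EBP was not called with median-of-ratios scaling (0.21, adjusted p = 0.0659). SC5D differed downward, by −0.62 ± 0.14 (adjusted p = 0.00202), INSIG1 by −0.37 and ABCA1 by −0.66. In both lines together, 7 members were lower with siVRK1 (HMGCS1, MVK, MVD, HSD17B7, SC5D, INSIG1 and SREBF2), which is 7 of the 11 lower in ES2 and 7 of the 15 lower in A2780, and 2 were higher (MSMO1 and NPC2). Of the 30 members tested in both lines those are 23.3% lower and 6.67% higher, against 15.2% and 7.82% of the 11304 genes tested in both. In the 3′ untranslated region of its most abundant coding transcript, SC5D was the 1 member of 31 to hold the word GATAATA, which 7.95% of 13359 tested genes held (GENCODE release 29). That word had come from an earlier search of these same data over all such words, and whether it bears on SC5D was not tested.

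**Figure D3:**
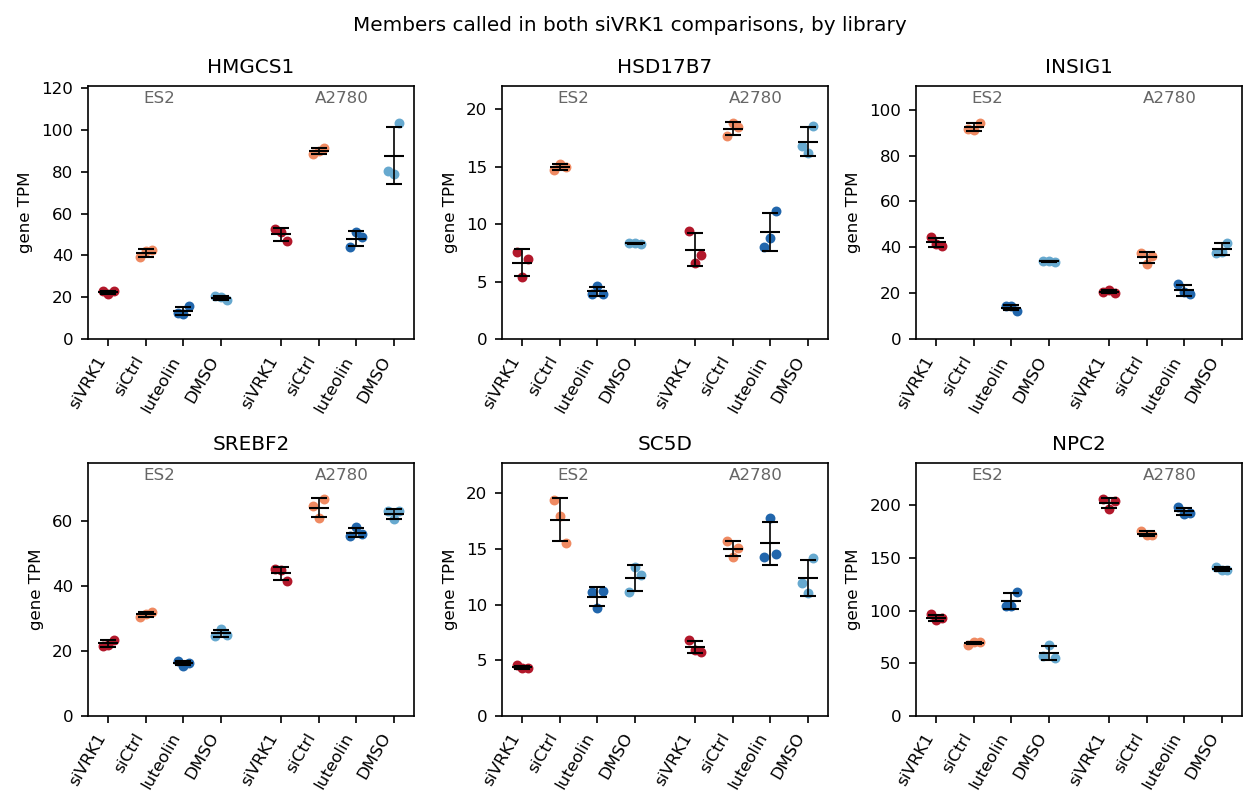
Gene TPM in each library (points) of ES2 (left) and A2780 (right), with the mean and SD of 3 libraries as bars, for 5 members lower and 1 member (NPC2) higher with siVRK1 in both lines. SC5D lies between 4.29 and 6.79 TPM in the 6 siVRK1 libraries and at 9.74 TPM or above in all others.

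With luteolin in ES2, 17 of the 30 members tested were lower and 4 higher, against 25.8% lower and 22.6% higher over all 12507 genes (48.4% called, and 70.0% of the members). Of the 22 SREBP2 targets, 15 were lower and 1, the lysosomal sterol exporter NPC1, was higher, with a median change of −0.36. STARD4 had the largest change: it was at 1.03, 1.52 and 1.962 TPM in ES2 luteolin libraries, against 6.63, 8.58 and 7.63 TPM in ES2 DMSO libraries (−1.79 ± 0.19, adjusted p = 8.15e-06). INSIG1 was at 14.4, 14.6 and 12.4 TPM with luteolin, against 33.9, 34.1 and 33.6 TPM with DMSO (−1.24 ± 0.06, adjusted p = 1.24e-08). Among the controllers, SREBF2 was at 16.9, 15.5 and 16.4 TPM with luteolin, against 24.5, 26.7 and 24.9 TPM with DMSO (−0.61 ± 0.06, adjusted p = 3.27e-06). INSIG2, the second SCAP anchor, was at 6.97, 7.11 and 7.75 TPM with luteolin, against 11.3, 9.59 and 14.01 TPM with DMSO (−0.60 ± 0.12, adjusted p = 0.0011). No luteolin library overlapped the DMSO libraries for these 4 genes, a condition of giving their full values.

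The enzymes with the largest falls in ES2 luteolin were HSD17B7, DHCR7, ACAT2 and HMGCS1. At the head of the pathway, ACAT2 was at 24.6, 19.3 and 23.5 TPM in ES2 luteolin libraries, against 39.2, 40.8 and 40.4 TPM in ES2 DMSO libraries (−0.82 ± 0.08, adjusted p = 2.77e-06), and HMGCS1 was at 12.8, 11.9 and 15.8 TPM, against 20.7, 19.99 and 18.9 TPM (−0.54 ± 0.09, adjusted p = 0.00028). At its end, DHCR7 was at 147, 144 and 165 TPM with luteolin, against 270.1, 275 and 276 TPM with DMSO (−0.85 ± 0.06, adjusted p = 3.04e-07). HSD17B7 was at 3.93, 4.64 and 3.95 TPM with luteolin, against 8.37, 8.37 and 8.28 TPM with DMSO (−0.85 ± 0.11, adjusted p = 3.16e-05). EBP and SQLE fell by 0.48 each, IDI1 by 0.42, MSMO1 by 0.31, PMVK by 0.30, NSDHL by 0.27 and FDPS by 0.14, the last not called with quantile normalization (adjusted p = 0.892). FDFT1, the squalene synthase, was called lower (−0.41, adjusted p = 0.0448), a call lost with coding transcripts alone (0.394), with a pseudocount of 5 (0.0609), with no filter (0.0933), without luteolin library 2 (0.141) or 3 (0.0847) and without DMSO library 1 (0.131) or 3 (0.112). MVK, MVD, LSS, CYP51A1, TM7SF2, SC5D and SCAP were not called, with changes between −0.22 and 0.13.

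Lysosomal sterol carriers ran the other way in ES2. NPC2 was at 104, 104 and 118 TPM in ES2 luteolin libraries, against 56.7, 66.8 and 54.8 TPM in ES2 DMSO libraries (0.86 ± 0.07, adjusted p = 8.93e-07). NPC1 was at 26.9, 26.4 and 26.2 TPM with luteolin, against 21.1, 22.7 and 20.8 TPM with DMSO (0.29 ± 0.06, adjusted p = 0.00155). Both rose without overlap. NR1H3 was at 8.78, 8.65 and 11.7 TPM with luteolin, against 3.73, 5.30 and 4.30 TPM with DMSO (0.97 ± 0.15, adjusted p = 0.000152). Retained-intron transcripts made up 54.9% ± 8.21 (SD, n = 3) of NR1H3 TPM with luteolin and 31.7% ± 5.24 with DMSO, and over coding transcripts alone the change was 0.37 and not called (adjusted p = 0.0689). Mitochondrial mRNAs took 7.23% to 8.69% of TPM in ES2 luteolin libraries, against 4.03% to 5.15% in ES2 DMSO libraries. The endothelial marker sum was 9.59 to 10.7 TPM with luteolin, against 36.0 to 39.8 TPM with DMSO, most of it CDH5, the fibroblast sum 15.6 to 20.8 TPM, against 111 to 133 TPM, and the epithelial sum 705 to 775 TPM, against 952 to 992 TPM. The part of these values in the results on ES2 luteolin was not tested.

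With luteolin in A2780, 18 of the 31 members were lower and 10 higher, against 19.9% lower and 45.6% higher over all 13012 genes (65.5% called, and 90.3% of the members). The median change of all genes was 0.22 as deposited and 0.03 with median-of-ratios scaling, under which 4122 genes were lower and 4343 higher, so changes here are relative to that median, with the p of the deposited scale. With that scaling 18 members were lower and 8 higher. Of the 22 SREBP2 targets, 18 were lower under both scalings, with a median of −0.83, while 3 were higher as deposited and 2 with median-of-ratios scaling. FDPS was at 164, 163 and 162 TPM in A2780 luteolin libraries, against 423, 435 and 433 TPM in A2780 DMSO libraries (−1.61 ± 0.04, adjusted p = 5.29e-11). EBP was at 57.4, 52.9 and 49.7 TPM with luteolin, against 136, 143 and 136 TPM with DMSO (−1.58 ± 0.05, adjusted p = 8.63e-10). FDPS was the most abundant member in A2780 DMSO libraries, and neither gene overlapped. ACAT2 was at 25.8, 27.96 and 27.4 TPM with luteolin, against 65.5, 64.4 and 70.2 TPM with DMSO (−1.49 ± 0.05, adjusted p = 9.16e-10). MVK was at 8.60, 8.66 and 12.4 TPM with luteolin, against 20.02, 21.00 and 24.03 TPM with DMSO (−1.29 ± 0.12, adjusted p = 4.55e-06). All 7 mevalonate genes were lower, with a summed level of 392 ± 10.5 TPM in luteolin libraries and 832 ± 25.8 TPM in DMSO libraries (SD, n = 3).

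The remaining A2780 falls ran through the rest of the pathway. HMGCS1 was at 44.2, 51.2 and 48.7 TPM in A2780 luteolin libraries, against 80.5, 78.9 and 103 TPM in A2780 DMSO libraries (−1.06 ± 0.09, adjusted p = 4.72e-06). INSIG1 was at 24.1, 20.5 and 19.7 TPM with luteolin, against 37.6, 38.05 and 42.1 TPM with DMSO (−1.06 ± 0.08, adjusted p = 1.76e-06). HSD17B7 was at 8.0, 8.83 and 11.1 TPM with luteolin, against 16.8, 16.2 and 18.6 TPM with DMSO (−1.04 ± 0.13, adjusted p = 8.84e-05). For all 3 the luteolin libraries lay below the DMSO libraries. LSS was at 17.4, 21.9 and 16.6 TPM with luteolin, against 31.6, 31.2 and 33.04 TPM with DMSO (−0.97 ± 0.10, adjusted p = 2.74e-05). IDI1 was at 56.9, 56.5 and 48.3 TPM with luteolin, against 87.3, 89.00 and 95.8 TPM with DMSO (−0.96 ± 0.07, adjusted p = 1.4e-06). SQLE was at 34.1, 35.7 and 36.1 TPM with luteolin, against 53.6, 50.02 and 63.7 TPM with DMSO (−0.86 ± 0.07, adjusted p = 8.59e-06). These enzymes close the squalene ring system or feed it, and none overlapped. PMVK, MVD, NSDHL, DHCR7, TM7SF2, MSMO1 and CYP51A1 fell by 0.53 to 0.85. SREBF2 had 55.2, 58.03 and 55.8 TPM with luteolin, against 62.9, 60.4 and 63.1 TPM with DMSO (−0.36, adjusted p = 0.0343). On the deposited scale that call was lost without luteolin library 1 (adjusted p = 0.0955) or 3 (0.08) and without DMSO library 1 (0.0918) or 3 (0.0693), and also with the replicate block (0.0563) and with the groups compared alone (0.0555).

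Carriers and export genes were higher in A2780 with luteolin. NPC1 was at 23.4, 26.4 and 25.9 TPM in A2780 luteolin libraries, against 14.7, 12.7 and 13.8 TPM in A2780 DMSO libraries (0.62 ± 0.10, adjusted p = 1.45e-05). NPC2 was at 198, 192 and 193 TPM with luteolin, against 142, 139 and 138 TPM with DMSO (0.26 ± 0.04, adjusted p = 2.08e-07). STARD4 was higher by 0.28, with 34.7, 39.6 and 30.4 TPM with luteolin, against 21.6, 21.3 and 30.9 TPM with DMSO, and these ranges overlapped. ABCA1, ABCG1, MYLIP, NR1H2 and SCAP were higher too, by 0.19 to 0.94, and ABCG1 was not called with quantile normalization (adjusted p = 0.678). SC5D and INSIG2 were called higher on the deposited scale but not with median-of-ratios scaling, where SC5D changed by 0.11 (adjusted p = 0.269) and INSIG2 by 0.13 (0.323). SC5D turned to −0.03 with quantile normalization and was not called with coding transcripts alone (adjusted p = 0.925). SREBF1, FDFT1 and NR1H3 were not called. A2780 luteolin libraries had 12761 to 12862 genes at 1 TPM or more and 9.39% to 12.1% mitochondrial mRNA, against 11862 to 11963 genes and 5.96% to 7.97% in A2780 DMSO libraries. The part of these values in the changes was not tested.

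Over both lines, 13 members were lower with luteolin, which is 13 of the 17 lower in ES2 and 13 of the 18 lower in A2780, and NPC1, NPC2 and MYLIP were higher in both. Of the 30 members tested in both lines the 13 lower are 43.3%, against 10.5% of the 11304 genes, and the 3 higher stand against 15.5% of those genes. With median-of-ratios scaling the member counts were the same and the shares of genes were 14.9% lower and 13.1% higher. The size of the change differed between the lines (ES2 minus A2780) for 24 of the 31, with 13 above 0 and 11 below, against 14.7% above and 35.8% below over all genes (50.5% called). The median difference of all genes was −0.20 and values are relative to it, and with median-of-ratios scaling 15 were above and 8 below, against 3431 and 3678 of all genes. FDPS had the largest difference above 0, 1.45 ± 0.05 (adjusted p = 2.96e-13), and in ES2 it was at 179, 177 and 192 TPM in ES2 luteolin and 203, 201 and 200.1 TPM in ES2 DMSO libraries. EBP differed by 1.08 ± 0.09 (adjusted p = 1e-07) and MVK by 1.05 ± 0.18 (adjusted p = 0.000478). EBP was at 46.96, 45.00 and 52.95 TPM in ES2 luteolin and 65.8, 72.9 and 64.8 TPM in ES2 DMSO libraries, a smaller gap than in A2780. TM7SF2, LSS, MVD, ACAT2 and IDI1 also differed upward, by 0.52 to 0.77. STARD4 differed most, by −2.10 ± 0.24 (adjusted p = 1.81e-07), and INSIG2 by −0.73 ± 0.17 (adjusted p = 0.000134). STARD4 thus fell in ES2 and was higher in A2780. INSIG1 and HSD17B7 differed by −0.40 (95% interval −0.61 to −0.18) and −0.03 (−0.38 to 0.32) on the deposited scale, and the INSIG1 difference was not called with median-of-ratios scaling (adjusted p = 0.0996).

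**Figure D4:**
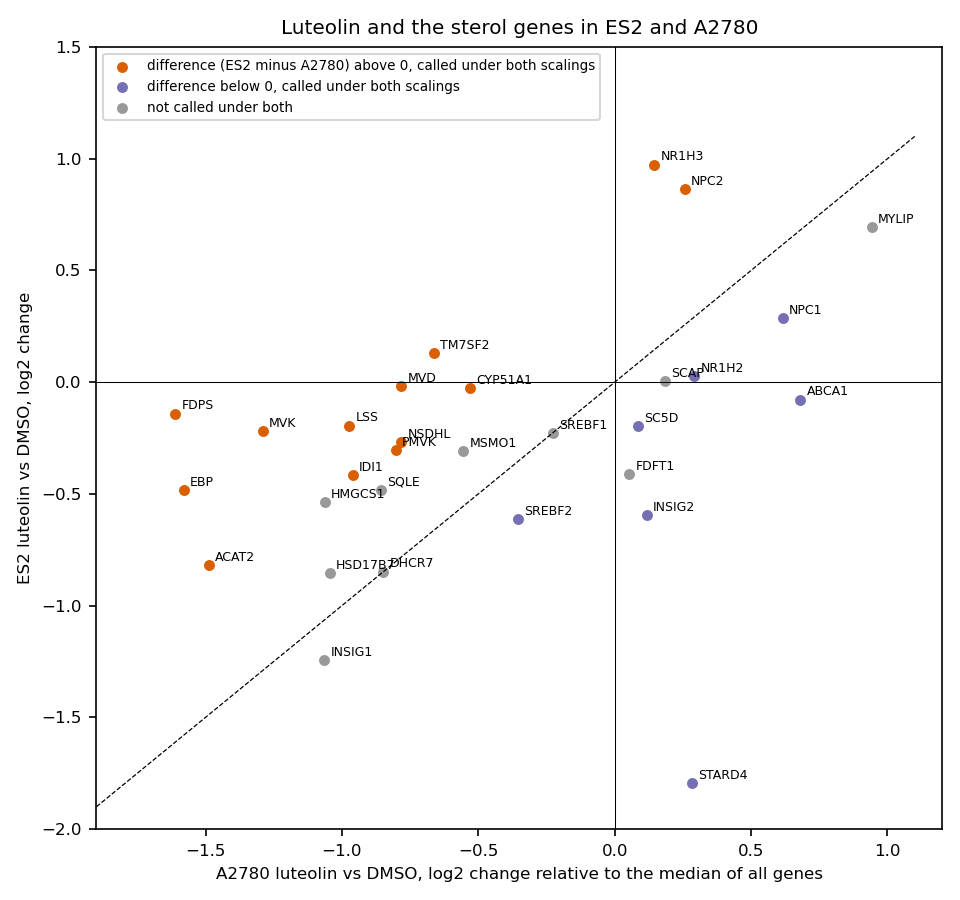
Log2 change with luteolin in ES2 (vertical) against A2780 (horizontal, relative to the median of all genes), with 1 point per member tested in both lines and a dashed line of equal change. Colours mark members whose difference between the lines was called with deposited and with median-of-ratios scaling; FDPS and EBP lie left of the dashed line and STARD4 far below it.

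Across all 4 treatment comparisons, HMGCS1, HSD17B7, INSIG1 and SREBF2 were lower in each and NPC2 was higher in each, where the SREBF2 call in A2780 with luteolin was lost without any 1 of 4 libraries, with the replicate block and with the groups compared alone, as given above. Of the 30 members tested in both lines those are 13.3% lower and 3.33% higher in each, against 2.67% and 1.42% of the 11304 genes. The 22 SREBP2 targets together had 1121 ± 18.4 TPM in ES2 siVRK1 and 1255 ± 38.4 TPM in ES2 siCtrl libraries, and 732 ± 33.5 TPM in ES2 luteolin and 1001 ± 21.4 TPM in ES2 DMSO libraries (SD, n = 3 each). In A2780 they had 980 ± 31.7 TPM with siVRK1 and 1261 ± 32.8 TPM with siCtrl, and 831 ± 21.3 TPM with luteolin and 1453 ± 50.8 TPM with DMSO. The sums for treated libraries were below those of their controls in each pair, without overlap. In ES2 siVRK1 much of the gap lay in DHCR7, which averaged 297 TPM with siVRK1 and 349 TPM with siCtrl, and in INSIG1, which averaged 42.2 TPM with siVRK1 and 92.3 TPM with siCtrl. Without those 2 genes the sum was 782 ± 10.4 TPM in ES2 siVRK1 and 813 ± 9.28 TPM in ES2 siCtrl libraries. The sum of the 5 LXR targets (ABCA1, ABCG1, MYLIP, SREBF1 and NR1H3) consisted mostly of SREBF1. It was 31.8 ± 1.57 TPM in ES2 siVRK1 and 34.7 ± 2.21 TPM in ES2 siCtrl libraries, and 29 ± 1.84 TPM in ES2 luteolin and 26.1 ± 2.51 TPM in ES2 DMSO libraries. In A2780 it was 61.5 ± 5.16 TPM with siVRK1 and 68.2 ± 4.28 TPM with siCtrl, and 78.4 ± 5.98 TPM with luteolin and 72.3 ± 6.46 TPM with DMSO. In each of these 4 pairs the ranges of the libraries overlapped. Without SREBF1 no pair overlapped: the sum was 7.76 to 9.90 TPM in ES2 siVRK1 and 10.2 to 12.4 TPM in ES2 siCtrl libraries, and 9.22 to 14.2 TPM in ES2 luteolin and 4.36 to 5.92 TPM in ES2 DMSO libraries. In A2780 it was 10.4 to 11.5 TPM with siVRK1 and 12.9 to 19.1 TPM with siCtrl, and 14.4 to 20.2 TPM with luteolin and 9.34 to 11.6 TPM with DMSO. These sums consisted mostly of NR1H3, and both subsets were chosen after their values were seen. The median change of the LXR targets tested other than SREBF1 was 0.69 with luteolin in ES2 and −0.20 with siVRK1 in ES2. In A2780 it was 0.53 with luteolin, relative to the median of all genes there, and 0.14 with siVRK1. Only 3 such genes were tested in ES2, so the 0.69 is the value of the scarce MYLIP, beside −0.08 for ABCA1 and 0.97 for NR1H3. With luteolin 3 of the 5 LXR targets were higher and 0 lower in A2780, against 45.6% and 19.9% of all genes. In ES2 2 of the 4 tested were higher with luteolin and 1, SREBF1, lower, against 22.6% and 25.8% of all genes. The SREBF1 call was lost without luteolin library 3 (adjusted p = 0.0829), without DMSO library 2 (0.0947) and with the groups compared alone (0.0575). With siVRK1 the counts were 2 higher and 1 lower of 5 in A2780, against 13.8% and 27.0% of all genes. They were 0 higher and 1 lower of 4 in ES2, against 26.8% and 28.0% of all genes.

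Most LXR targets were near the floor, where a change rests on the added 1 TPM. ABCA1, which loads cholesterol onto apolipoproteins, was at 1.85, 1.502 and 1.53 TPM in A2780 siVRK1 libraries, against 0.942, 0.763 and 0.636 TPM in A2780 siCtrl libraries (0.56 ± 0.14, adjusted p = 0.00662). With luteolin in A2780 it was at 1.68, 1.81 and 2.17 TPM, against 0.460, 0.456 and 0.737 TPM with DMSO (0.68 ± 0.14, adjusted p = 0.000106). ABCA1 was higher in both A2780 comparisons, while in ES2 it was not called in either. In ES2 it was at 1.18, 1.07 and 1.01 TPM with siVRK1, against 0.932, 1.16 and 1.69 TPM with siCtrl, and at 0.0909, 0.0720 and 0.138 TPM with luteolin, against 0.167, 0.204 and 0.113 TPM with DMSO. ABCG1, which passes cholesterol to lipoproteins, was at 1.30, 0.950 and 1.16 TPM in A2780 luteolin libraries, against 0.348, 0.494 and 0.384 TPM in A2780 DMSO libraries (0.38 ± 0.15, adjusted p = 0.00332). In A2780 siVRK1 libraries ABCG1 was at 0.670, 0.884 and 1.16 TPM, against 0.543, 0.364 and 0.343 TPM with siCtrl (0.42 ± 0.15, adjusted p = 0.0387), a call lost without siVRK1 library 2 (0.0823), siCtrl library 2 (0.0961) or siCtrl library 3 (0.106), with the replicate block (0.0621), with quantile normalization (0.055) and with a pseudocount of 5 (0.0548). MYLIP, a ubiquitin ligase that removes lipoprotein receptors, rose with luteolin. It was at 1.14, 0.499 and 2.27 TPM in ES2 luteolin libraries, against 0.422, 0.355 and 0.285 TPM in ES2 DMSO libraries (0.69 ± 0.22, adjusted p = 0.0219), and the call was lost without luteolin library 3 (0.0857) or DMSO library 3 (0.0609) and with quantile normalization (0.0502). In A2780 it was at 1.81, 1.64 and 1.18 TPM with luteolin, against 0.0833, 0.0658 and 0.261 TPM with DMSO (0.94 ± 0.16, adjusted p = 3.17e-05). With siVRK1 in ES2 MYLIP was lower, at 0.559, 0.642 and 0.686 TPM, against 1.47, 1.79 and 1.57 TPM with siCtrl (−0.68 ± 0.22, adjusted p = 0.0214), lost without siVRK1 library 3 (0.0575) or siCtrl library 2 (0.0655).

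**Figure D5:**
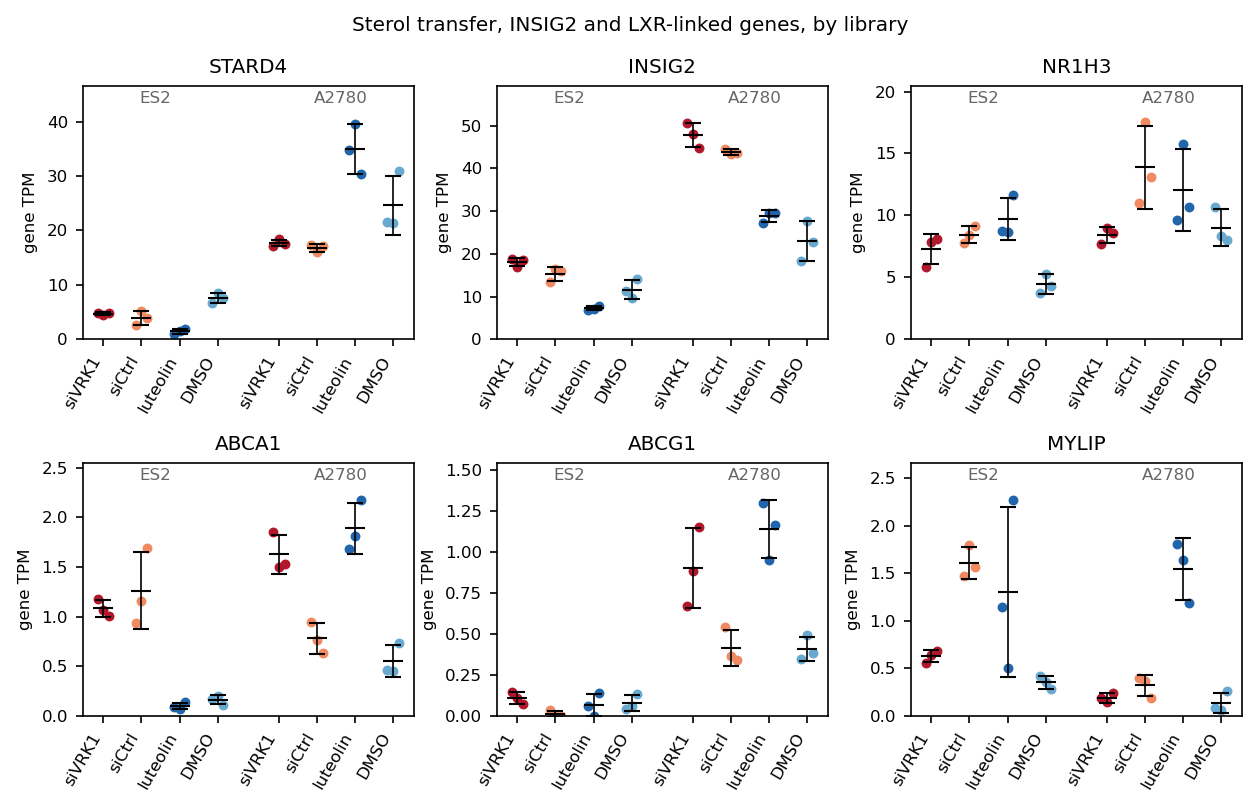
Gene TPM in each library (points) of ES2 (left) and A2780 (right), with the mean and SD of 3 libraries as bars, for STARD4, INSIG2, NR1H3, ABCA1, ABCG1 and MYLIP. STARD4 lies at 1.962 TPM or below in ES2 luteolin libraries and at 30.4 TPM or above in A2780 luteolin libraries, and ABCA1, ABCG1 and MYLIP never pass 2.27 TPM.

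The control siRNA and the solvent were not alike for these genes, and the comparisons above use each as a baseline. In ES2, 23 of the 30 members tested were higher with siCtrl than with DMSO and 1 was lower, against 34.7% higher and 21.5% lower over all genes (56.2% called). With median-of-ratios scaling the counts were 18 and 3, against 3561 higher and 3425 lower of all 12507 genes. INSIG1 changed by 1.42 ± 0.06 (adjusted p = 2.94e-09), HMGCS1 by 1.02 ± 0.09 (adjusted p = 8.97e-07) and HSD17B7 by 0.77 ± 0.11 (adjusted p = 4.91e-05), from the siCtrl and DMSO values given above. All 3 were higher in every ES2 siCtrl library than in every ES2 DMSO library. INSIG1 in ES2 siVRK1 libraries, at 40.5 to 44.5 TPM, lay below siCtrl (90.9 to 94.3 TPM) and above DMSO (33.6 to 34.1 TPM). CYP51A1 was at 23.9, 25.96 and 27.2 TPM in ES2 siCtrl libraries, against 15.9, 18.5 and 17.2 TPM in ES2 DMSO libraries (0.55 ± 0.07, adjusted p = 4.66e-05). NPC1 was at 33.7, 32.5 and 29.98 TPM with siCtrl, against 21.1, 22.7 and 20.8 TPM with DMSO (0.55 ± 0.06, adjusted p = 6.59e-06). IDI1 was at 56.3, 57.3 and 59.4 TPM with siCtrl, against 35.9, 43.3 and 40.97 TPM with DMSO (0.52 ± 0.08, adjusted p = 0.000104). NR1H3, at 7.77, 8.43 and 9.15 TPM with siCtrl, was higher by 0.80 ± 0.15 (adjusted p = 0.000479). STARD4 was the 1 member lower, at 2.63, 5.27 and 3.93 TPM with siCtrl, against 6.63, 8.58 and 7.63 TPM with DMSO (−0.83 ± 0.19, adjusted p = 0.00232). The siVRK1 and luteolin comparisons share these siCtrl and DMSO libraries, so the columns of changes are not independent.

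In A2780 the direction of the siCtrl and DMSO contrast depended on the scaling: 10 of the 31 were higher and 7 lower as deposited, against 1 higher and 16 lower with median-of-ratios scaling. Over all genes 47.2% were higher and 10.9% lower (58.1% called) as deposited, and 3069 genes were higher and 3334 lower with that scaling. The median of all genes was 0.24, and relative to it FDPS changed by −0.76 ± 0.04 (adjusted p = 1.19e-06), with 296, 291 and 313 TPM in A2780 siCtrl libraries, against 423, 435 and 433 TPM in A2780 DMSO libraries. EBP was at 104, 100.5 and 97.03 TPM with siCtrl, against 136, 143 and 136 TPM with DMSO (−0.70 ± 0.05, adjusted p = 2.54e-05). DHCR7 was at 52.4, 43.7 and 52.5 TPM with siCtrl, against 65.7, 65.3 and 67.3 TPM with DMSO (−0.66 ± 0.08, adjusted p = 0.000937). These 3 enzymes were lower under both scalings, as were IDI1 (−0.60), MSMO1 (−0.57), ACAT2 (−0.43) and STARD4 (−0.75). IDI1 was at 71.7, 71.5 and 68.6 TPM with siCtrl, MSMO1 at 27.5, 26.6 and 25.97 TPM with siCtrl and 34.3, 31.2 and 36.04 TPM with DMSO, and STARD4 at 17.3, 15.99 and 17.2 TPM with siCtrl. INSIG2 was higher under both, at 44.6, 43.4 and 43.6 TPM with siCtrl, against 18.3, 27.7 and 22.8 TPM with DMSO (0.68 ± 0.11, adjusted p = 2.73e-05). INSIG1, which rose in ES2, had −0.38 in A2780, where it was not called as deposited (adjusted p = 0.172) and was called lower under both rescalings, by quantiles and by median of ratios.

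Genes next to these in the same processes also moved in both directions. Over all genes siVRK1 lowered 28.0% and raised 26.8% in ES2 and lowered 27.0% and raised 13.8% in A2780, and luteolin lowered 25.8% and raised 22.6% in ES2 and lowered 19.9% and raised 45.6% in A2780. Among 15 other sterol synthesis and SREBP target genes, siVRK1 lowered 5 and raised 4 in ES2 and lowered 9 and raised 1 in A2780, and luteolin lowered 10 and raised 1 in ES2 and lowered 6 and raised 3 in A2780 (9 and 2 with median-of-ratios scaling). SCD, the stearoyl-CoA desaturase, was at 49.1 TPM on average in ES2 siVRK1 and 126 TPM in ES2 siCtrl libraries (−1.34), and at 110.0 TPM in A2780 siVRK1 and 195 TPM in A2780 siCtrl libraries (−0.82). With luteolin in ES2 it averaged 48.2 TPM, against 98.9 TPM with DMSO (−1.02). LBR, the sterol reductase that shares its reaction with TM7SF2, averaged 104 TPM in ES2 siVRK1 and 67.6 TPM in ES2 siCtrl libraries (0.61), a rise. LPIN1, a phosphatidate phosphatase, averaged 8.24 TPM in A2780 siVRK1 and 16.6 TPM in A2780 siCtrl libraries (−0.94). In A2780 luteolin FADS2, a fatty acid desaturase, changed by −1.05 and ERG28, a scaffold of the demethylation enzymes, by −0.83 relative to the median of all genes.

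Of 12 genes of SREBP processing and sterol-regulated degradation, siVRK1 lowered 3 and raised 6 in ES2 (28.0% and 26.8% of all genes) and lowered 3 and raised 3 in A2780 (27.0% and 13.8%). MBTPS2, the site-2 protease that releases SREBPs, fell in both, averaging 4.37 TPM in ES2 siVRK1 and 10.1 TPM in ES2 siCtrl libraries (−1.05), and 8.91 TPM in A2780 siVRK1 and 15.04 TPM in A2780 siCtrl libraries (−0.70). RNF145, a ubiquitin ligase of sterol-regulated degradation, averaged 61.2 TPM in A2780 luteolin and 26.4 TPM in A2780 DMSO libraries (0.97 relative to the median of all genes). Luteolin lowered 3 and raised 3 of the 12 in ES2 (25.8% and 22.6% of all genes) and lowered 1 and raised 9 in A2780 (19.9% and 45.6%), where median-of-ratios scaling left 2 lower and 6 higher. VCP, the ATPase that extracts ubiquitinated membrane proteins, averaged 118 TPM in ES2 luteolin and 215 TPM in ES2 DMSO libraries (−0.87). Of 11 isoprenoid branch genes siVRK1 lowered 5 in each line and raised 2 in ES2 and 0 in A2780 (28.0% lower and 26.8% higher over all genes in ES2, 27.0% and 13.8% in A2780), among them the farnesyltransferase subunit FNTB (−0.54 in ES2, −0.75 in A2780) and, in ES2, the synthase GGPS1 (−0.65). Luteolin lowered 3 and raised 3 of them in ES2 (25.8% and 22.6% of all genes) and lowered 1 and raised 6 in A2780 (19.9% and 45.6%), but 2 were lower and 1 higher there with median-of-ratios scaling, with COQ2, an enzyme of ubiquinone synthesis, lower in both (−0.52 in ES2, −0.58 in A2780, relative to the median over genes).

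Of 14 tested genes of uptake, lysosomal release, esterification and transfer, siVRK1 lowered 5 and raised 3 in ES2 (28.0% and 26.8% of all genes) and lowered 3 and raised 1 in A2780 (27.0% and 13.8%). Luteolin lowered 4 and raised 2 of them in ES2 (25.8% and 22.6%) and lowered 1 and raised 6 in A2780 (19.9% and 45.6%), or 3 and 4 there with median-of-ratios scaling. VLDLR, a lipoprotein receptor, averaged 9.99 TPM in ES2 siVRK1 and 19.8 TPM in ES2 siCtrl libraries (−0.92), and 15.3 TPM in ES2 luteolin and 9.53 TPM in ES2 DMSO libraries (0.63). SCARB1, the receptor for high-density lipoprotein, was lower with luteolin in both lines (−0.59 in ES2, −0.68 in A2780, relative to the median over genes). NCEH1, a cholesteryl ester hydrolase, averaged 19.3 TPM in ES2 luteolin and 38.7 TPM in ES2 DMSO libraries (−0.97). Of the other LXR targets and oxysterol enzymes, 8 of 12 were tested in ES2 and 7 in A2780. PLTP, the phospholipid transfer protein and an LXR target, averaged 228 TPM in A2780 luteolin and 114 TPM in A2780 DMSO libraries (0.77 relative to the median of all genes), and 26.7 TPM in ES2 siVRK1 and 15.3 TPM in ES2 siCtrl libraries (0.77). In that list luteolin raised 5 and lowered 0 in A2780 (5 and 1 with median-of-ratios scaling), against 45.6% and 19.9% of all genes, and raised 2 and lowered 1 in ES2 (22.6% and 25.8%). In the same list siVRK1 raised 3 and lowered 2 in A2780 (13.8% and 27.0%) and raised 2 and lowered 3 in ES2 (26.8% and 28.0%).

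The transcript make-up of some members limits their sums. Coding transcripts held a median of 44.0% of INSIG2 TPM, 58.2% of SCAP, 61.2% of NR1H3 and 61.8% of SREBF1 over the 24 libraries, by GENCODE release 29 types, against 99.1% of INSIG1. FDFT1 was spread over 26 transcripts, of which the leading one held 26.8%. Retained-intron transcripts were 33.5% ± 4.58 of SC5D TPM in A2780 luteolin and 17.3% ± 7.34 in A2780 DMSO libraries (SD, n = 3 each). For FDPS they were 18.7% ± 0.714 in A2780 luteolin and 13.1% ± 2.72 in A2780 DMSO libraries, and 22.9% ± 2.21 in ES2 luteolin and 15.3% ± 2.35 in ES2 DMSO libraries. HSD17B7 has a near-identical copy, HSD17B7P2, listed at 0.196 to 2.18 TPM, and its reads may be divided between the copies, so its level is uncertain to that extent.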

How the data were processed

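RNA-seq was read from the deposited table of TPM per transcript. The authors made these TPM values with kallisto after FastQC and name the build hg19, per the submitters' processing notes, which give no versions. TPM sums to 1000000 in each library and keeps no depth, so depth is unknown. The table held 191887 transcripts, and 1958 repeated lines with identical values were used once. TPM was summed per symbol over transcripts, leaving out 9542 transcripts with no symbol and 19 with more than 1. Every sample column was used (0 left out). Groups follow the sample titles, since other labels conflict with them.

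Genes that reached 1 TPM in 3 or more libraries of a fit were tested with limma 3.58.1 (limma-trend, R 4.3.3) on log2(TPM + 1), p-values adjusted by Benjamini-Hochberg across the genes of the fit, and a call at 0.05. Within-line comparisons used the 12 libraries of that line; differences between the lines used all 24. Of 9 comparisons, the 4 in which rescaling moved the median of all genes by over 0.1 are given relative to that median. The members and lists were chosen with earlier results of these data known. Full values were given for members that were called, with groups that do not overlap, a change of at least 0.5 in size and the higher group averaging 5 TPM or more, at most 10 per comparison and direction. Up to 2 per direction came from each further list by the same criteria, and a gene that this rule names is not reported here. Members outside that rule were described because they belong to the list, and those singled out were chosen after their values were seen. For members under the rule, a lack of overlap was a condition of the choice and not a further result. The share of all genes without overlap was not counted. Same-numbered libraries of a line had deviations from their group means that correlated at no more than 0.038. No shared shift was seen, which cannot show that same-numbered libraries were handled apart. The unnumbered ES2 siVRK1 libraries a and b could not be checked this way. The main fit did not pair libraries by number. On simulated data with known answers 91% to 99% of 2-fold changes were recovered across the comparisons. Only genes averaging 5 TPM or more were moved there, with all other genes left unchanged. The rate therefore does not cover smaller changes, scarcer genes or data in which most genes move. Alternatives were other pseudocounts (0.1 and 5), filters, scalings, a replicate block, coding transcripts alone, the groups compared alone, and each library left out. Tables and plots were made with Python 3.11.15, pandas 2.3.3, numpy 2.4.6 and matplotlib 3.10.9.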

Additional observations from a re-analysis of the deposited data

Results flagged for a closer look

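Of the members named above, 15 changes differed between the lines by the test of the difference itself (ES2 minus A2780, limma, adjusted p under 0.05). With siVRK1 the difference was 0.67 for PMVK, 0.51 for CYP51A1 and −0.62 for SC5D. With luteolin, relative to the median of all genes, it was 1.45 for FDPS, 1.08 for EBP, 1.05 for MVK, 0.77 for TM7SF2, 0.76 for LSS, 0.74 for MVD, 0.65 for ACAT2 and 0.52 for IDI1 among the enzymes. It was −2.10 for the carrier STARD4, −0.73 for INSIG2, 0.59 for NPC2 and 0.81 for NR1H3. The IDI1 difference was not called without A2780 luteolin library 3 (adjusted p = 0.0574), without ES2 luteolin library 3 (0.056) or without ES2 DMSO library 1 (0.0566). It was also not called with the groups compared alone (0.0564). The NR1H3 difference was not called with coding transcripts alone (adjusted p = 0.211), nor without any 1 of 7 libraries, with adjusted p up to 0.13. That call was also lost with a pseudocount of 5 (0.0987), with no filter (0.0785) and with the groups compared alone (0.0682).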

How the results depend on the processing

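Of 76 named changes, 1354 values were computed under alternatives: 1337 kept their direction and call, 17 kept the direction and lost the call, all of them of NR1H3 or IDI1, and 0 reversed. The counts of members moved as follows. The 4 higher with siVRK1 in A2780 became 2 with a filter of 5 TPM, a level that ABCA1 and ABCG1 never reach, so they were not tested there. The 10 higher with siCtrl against DMSO in A2780 became 1 under median-of-ratios scaling, 3 after quantile normalization, and the 7 lower became 16 and 15. The 1 lower with siCtrl against DMSO in ES2 became 3 and 2 under the same scalings. The 3 siVRK1 differences below 0 became 6 with median-of-ratios scaling, 5 with quantile normalization and 5 with the groups compared alone. The 11 luteolin differences below 0 became 7 with quantile normalization and 6 with coding transcripts alone. Leaving out 1 library at a time gave 3 to 5 higher with siVRK1 in ES2, with 3 without ES2 siCtrl library 1. It gave 6 to 10 higher with siCtrl in A2780, with 6 without A2780 DMSO library 2. The cause of the other moves was not tested.

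With the replicate block, members higher and lower numbered 5 and 10 for siVRK1 in ES2, 3 and 15 for siVRK1 in A2780, 4 and 17 for luteolin in ES2, 10 and 17 for luteolin in A2780, 23 and 1 for siCtrl in ES2, and 10 and 8 for siCtrl in A2780. The block gave 7 above and 4 below for the siVRK1 difference and 13 above and 11 below for the luteolin difference. Pairing the unnumbered ES2 siVRK1 libraries in the other order, chosen after seeing the data, gave 24 higher with siCtrl in ES2 and moved no other count. The difference between the control libraries of the lines was not fitted with the block. Without read counts, a TPM near 0 has no counting limit.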
